A study of Equus caballus with 24 samples.

Results

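The genes described here carry the growth hormone signal from the cell surface to the nucleus and switch it off again. They are the growth hormone receptor (GHR), the kinase JAK2, the transcription factors STAT3, STAT5A and STAT5B, the feedback inhibitors CISH, SOCS1, SOCS3 and SOCS6, and the phosphatase PTPN11. These 10 genes were taken by symbol from the 24232 genes with deposited read counts, and each of the 10 was also found among the 24248 genes with an RPKM value (reads scaled by gene length and library size). RNA was sequenced from 12 female horses, 6 Debao ponies (DPs), a small breed, and 6 Mongolian horses (MHs), a taller breed. Juveniles and adults of both breeds gave 8 groups of 3 libraries: the pituitary of juvenile and adult DPs (DPPJ and DPPA) and MHs (MHPJ and MHPA), and the long bone epiphysis, the end of the bone that holds the growth plate, of the same groups (DPLBJ, DPLBA, MHLBJ and MHLBA). No treatment or engineered allele was involved, the labels give no ages, and the samples are whole tissues that hold many cell types.

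Growth hormone is made by the somatotroph cells of the anterior pituitary and binds GHR on liver, fat, cartilage and bone cells. The bound receptor activates JAK2, which phosphorylates STAT proteins. These enter the nucleus and induce IGF1, but also CISH and the SOCS genes, whose products bind the receptor or the kinase and dampen the signal. In the growth plate this signal drives longitudinal growth, and loss of GHR function causes short stature in several mammals. Activity of the pathway depends on phosphorylation, which RNA levels do not measure.

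Total reads on genes ranged from 11433209 to 27007342 per library. Defining markers were checked first. In 5 of the 12 pituitary libraries (the 3 of MHPJ, DPPA replicate 1 and MHPA replicate 1), the summed level of 8 anterior pituitary markers, among them GH and PRL, was 0.438 to 15.9 CPM (read counts scaled by depth and TMM factors), against 11053 to 34241 CPM in the other 7. The 5 glia markers in the files summed to 3509 to 18870 CPM in these 5 libraries and to 65.0 to 4363 CPM in the other 7. MHPJ replicate 2 also held 1269 CPM of muscle markers, where the other pituitary libraries had 5.70 to 20.2. Its sums of erythroid (268 CPM), neutrophil (123 CPM), endothelial (914 CPM) and adipocyte markers (200 CPM) were also the highest of the pituitary libraries. TSHB was at 0 in all 3 MHPJ libraries. These 5 libraries therefore lack the transcripts that define the anterior pituitary, and they include every juvenile MH pituitary library. In the long bone, the sum of 7 adipocyte markers was 7218 to 9046 CPM in MHLBJ and 1725 to 4225 CPM in DPLBJ, whereas 9 chondrocyte markers summed to 165 to 214 CPM and 2671 to 26057 CPM in the same groups. In whole tissue, fewer cells of a type and less RNA per cell cannot be told apart. STAT5A and STAT5B are close paralogs whose genes adjoin each other and share 145 bases in the RefSeq annotation (assembly TB-T2T), so that reads may be split between them with error.

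The tissues differed most. By mean RPKM, GHR ranked 1 among the 10 genes in the long bone and 4 in the pituitary, where PTPN11 ranked 1, and SOCS3 and SOCS1 ranked 9 and 10 in both. In the long bone, GHR had a median of 78.5 RPKM, with a lowest library of 20.7 and a highest of 135.8. Its pituitary level was 3.36 to 15.6 RPKM, with a median of 9.29, so that the 12 libraries of one tissue did not overlap the 12 of the other. JAK2, the kinase bound to GHR, had a median of 29.6 RPKM (11.4 to 54.1) in the long bone and of 11.3 RPKM (8.56 to 12.9) in the pituitary. STAT3, which mainly serves receptors of the interleukin-6 family, had medians of 69.2 and 33.5 RPKM. STAT5A and STAT5B, the usual STATs of growth hormone and prolactin, had medians of 11.4 and 13.8 RPKM in the long bone and of 4.19 and 9.38 RPKM in the pituitary. PTPN11 (SHP2), a phosphatase that acts on receptor complexes, was at 28.7 to 95.5 RPKM in the long bone and 40.4 to 112.7 RPKM in the pituitary.

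**Figure D1:**
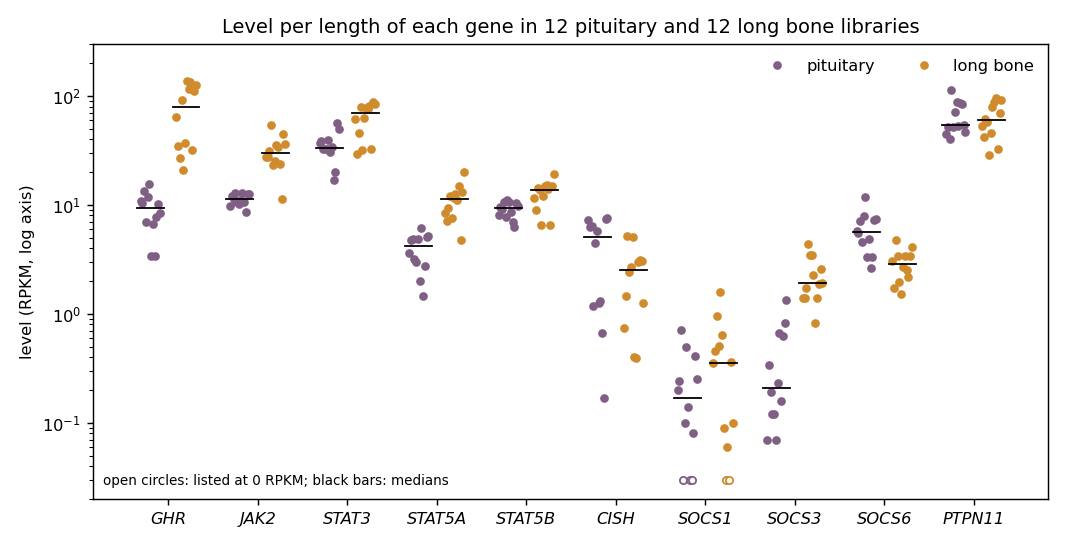
RPKM (log axis) of the 10 genes in each of 12 pituitary (purple) and 12 long bone (orange) libraries; black bars are medians and open circles are libraries listed at 0. GHR was at 3.36 to 15.6 RPKM in the pituitary and 20.7 to 135.8 RPKM in the long bone, and SOCS1 and SOCS3 were the lowest genes in both tissues.

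Over all 24 libraries, 7 of the 10 genes differed between the tissues at an adjusted p under 0.05 (edgeR's quasi-likelihood test with Benjamini-Hochberg adjustment), 6 of them higher in the long bone. For comparison, 61.8% of the 16131 tested genes passed the same threshold, 29.2% of them higher and 32.5% lower in the long bone. The log2 difference in CPM was 3.16 for GHR (SE 0.24, adjusted p 4.6e-09 by edgeR), an 8.97-fold higher level. It was 1.61 for STAT5A (SE 0.21), 1.58 for JAK2 (SE 0.15), 0.96 for STAT3 (SE 0.17) and 0.60 for STAT5B (SE 0.12). SOCS6, a feedback protein that binds receptor tyrosine kinases, was the 1 gene called lower in the long bone, by -0.88 (SE 0.19). SOCS3, at 13 to 57 reads per library in the long bone and 1 to 14 in the pituitary, missed the low-count filter in the pituitary alone and entered this fit through the tissue in which it is high, so its fitted difference of 2.93 (SE 0.30) is given as a description. Without SOCS1 and SOCS3, which both missed that filter, 6 of the other 8 members were called. The libraries of the tissues did not overlap for GHR, JAK2 and STAT5A, 3 of the 10, where 7.52% of all tested genes did not overlap. That is the order in CPM, and in RPKM the ranges of JAK2 and STAT5A overlapped while those of GHR did not. CISH, SOCS1 and PTPN11 did not pass, at -0.40 (SE 0.47), 0.69 (SE 0.64) and 0.01 (SE 0.16). An alternative chosen after the data were seen left out the 5 hormone-poor pituitary libraries. There CISH was lower in the long bone (-1.20, SE 0.42, adjusted p 0.023 by edgeR) and PTPN11 higher (0.45, SE 0.13, adjusted p 0.0093 by edgeR). The 7 calls remained, that of SOCS3 again as a description. The share of all genes called in this fit is not given here.

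GHR, the receptor itself, was lower in the long bone of DPs than of MHs. At the juvenile stage it was at 194, 105 and 72.5 CPM in DPLBJ replicates 1, 2 and 3. The corresponding libraries of MHLBJ had 352, 314 and 354 CPM. Every DP library thus lay below every MH library, with means of 124 ± 63.0 and 340.0 ± 22.6 CPM (SD, n = 3). The log2 fold change was -1.44 (SE 0.38), a 2.72-fold lower level, and GHR was the 1 gene of the 9 tested members that passed the study's threshold for a differentially expressed gene (DEG), which asks for more than a 2-fold change at an unadjusted P under 0.05. That threshold was passed by 13.8% of the 13755 tested genes, and 5.47% were lower in DPs. Its edgeR adjusted p was 0.154, and 0 genes (0%) of this comparison had an adjusted p under 0.05, while 2450 had an unadjusted P under 0.05. DESeq2 gave GHR an adjusted p of 0.0146, and the share of all genes that DESeq2 called is not given here. GHR remained a DEG on leaving out each of the 6 libraries in turn, with log2 fold changes from -1.91 to -1.16. Adipocyte markers moved with it: 7 of 7 tested were DEGs lower in DPLBJ. The sum of 5 endothelial markers also moved with it, at 811 to 1390 CPM in DPLBJ and 1999.8 to 2110.0 CPM in MHLBJ, and 2 of the 5 were DEGs lower. In the same comparison 9 of 9 chondrocyte markers, 5 of 5 neutrophil markers and 4 of 4 erythroid markers were DEGs higher, beside 8.33% of all genes. In DPLBJ replicate 1 the erythroid sum was 0.329 CPM, against 6954 and 3392 CPM in replicates 2 and 3 and 0.455 to 7.71 CPM in MHLBJ. Its neutrophil sum of 292 CPM lay within the 198 to 548 CPM of MHLBJ. The part of these cell types in the GHR difference was not tested.

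Adult long bone gave wider ranges. The 3 libraries of DPLBA had 254, 64.5 and 106.7 CPM of GHR. Those of MHLBA had 134, 293 and 303 CPM. The groups overlapped, because DPLBA replicate 1 lay above MHLBA replicate 1, and the log2 fold change of -0.83 (SE 0.54, edgeR adjusted p 0.380) did not pass. It was -1.55 (SE 0.46, unadjusted P 0.0147 by edgeR) without DPLBA replicate 1, when GHR was a DEG, and -1.09 (SE 0.52) without MHLBA replicate 1. Leaving out each of the 6 libraries in turn gave log2 fold changes of -1.55 to -0.46, with adjusted p up to 0.656 by edgeR. MHLBA replicate 1 had the lowest adipocyte marker sum of the 12 long bone libraries, 1093 CPM, against 6988 and 7986 CPM in the other MHLBA libraries, and DPLBA replicate 1 had the highest of the DP libraries, 6628 CPM. The same libraries had the lowest endothelial sum of the 12, 781 CPM, and the highest of the DP libraries, 1553 CPM. Averaged over both stages, GHR was lower in DPs by -1.16 (SE 0.36, edgeR adjusted p 0.0449), where 17.1% of the 14735 tested genes had an adjusted p under 0.05. This call was kept without DPLBA replicate 1, DPLBJ replicate 1 or MHLBA replicate 1 and lost without any 1 of the other 9 libraries, with adjusted p up to 0.106 and log2 fold changes of -1.53 to -0.98 by edgeR.

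**Figure D2:**
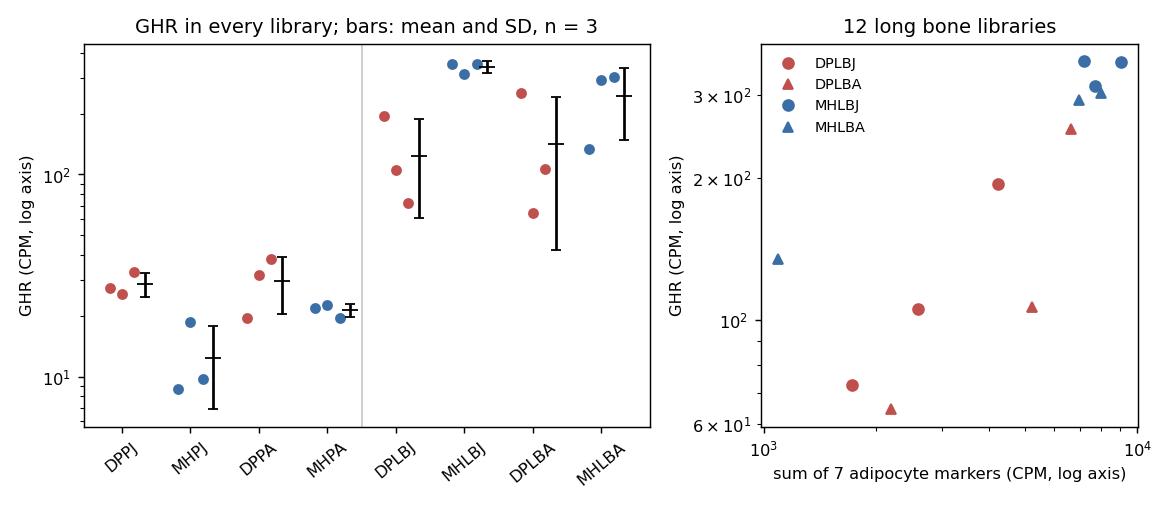
Left, GHR in CPM (log axis) in the 3 libraries of each group, DP in red and MH in blue, with mean and SD. Right, GHR against the summed CPM of 7 adipocyte markers (log axes) in the 12 long bone libraries. The 3 MHLBJ libraries have the highest GHR, and MHLBA replicate 3 lies among them in marker sum (7986 CPM). MHLBA replicate 1 combines 134 CPM of GHR with the lowest marker sum.

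Pituitary GHR differed between the breeds in the other direction. DPPJ libraries had 27.6, 25.6 and 32.9 CPM. MHPJ libraries had 8.70, 18.6 and 9.69 CPM, so that the breeds did not overlap. The log2 fold change of 1.15 (SE 0.36, edgeR adjusted p 0.0912) made GHR a 2.22-fold higher DEG in juvenile DPs. It was no longer a DEG without DPPJ replicate 3 (1.05), MHPJ replicate 1 (0.92) or MHPJ replicate 3 (1.00). All MHPJ and no DPPJ libraries were hormone-poor, so breed and hormone content cannot be told apart at this stage. In adults, GHR was at 19.6, 31.9 and 38.1 CPM in DPPA and at 21.9, 22.5 and 19.6 CPM in MHPA (log2 fold change 0.50, SE 0.28, edgeR adjusted p 0.637). Without DPPA replicate 1 and MHPA replicate 1, the hormone-poor library of each adult group, it was 0.74 higher in DPs (SE 0.19, unadjusted P 0.0066 and adjusted p 0.0986 by edgeR), under the fold threshold. Averaged over stages, the difference was 0.86 (SE 0.23, adjusted p 0.0772 by edgeR), which passed without DPPA replicate 1 (0.94, adjusted p 0.0394) or MHPJ replicate 2 (1.07, adjusted p 0.0242). Leaving out each of the 12 libraries gave 0.75 to 1.07, with adjusted p up to 0.229 by edgeR.

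The breed difference in GHR therefore had opposite signs in the tissues, and the difference between these differences was tested. The tissue by breed interaction was -1.97 on the log2 scale (SE 0.45, adjusted p 0.0120 by edgeR), and 11.6% of the 16131 tested genes passed the same test. Its pituitary part includes MHPJ, whose libraries are all hormone-poor, so breed and hormone content cannot be told apart there in juveniles. The interaction was not fitted with the hormone-poor libraries left out together. The interaction of GHR kept an adjusted p of at most 0.0268 when each of the 24 libraries was left out. The 24 libraries come from 12 horses, and the interaction in a fit with a replicate block was -2.14 (adjusted p 0.0533 by edgeR), which did not pass, although the numbers were not shown to pair the tissues. By mean CPM the 8 groups ranked MHLBJ, MHLBA (243 ± 94.5), DPLBA (142 ± 99.3), DPLBJ, DPPA (29.9 ± 9.41), DPPJ (28.7 ± 3.79), MHPA (21.3 ± 1.52) and MHPJ (12.3 ± 5.44; SD, n = 3 each). Neighbours whose libraries overlapped were MHLBA and DPLBA, DPLBA and DPLBJ, and DPPA and DPPJ.

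**Figure D3:**
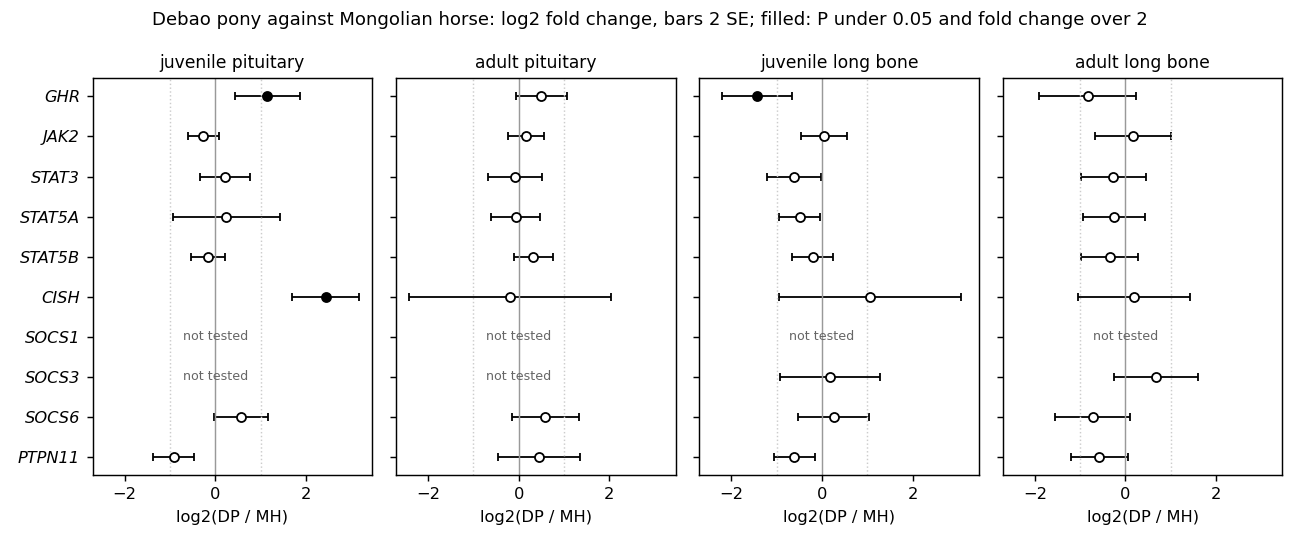
Log2 fold change of DP over MH for the 10 genes in the 4 breed comparisons, with bars of 2 SE; filled points passed the DEG threshold and genes that missed the low-count filter are marked as not tested. GHR lies at 1.15 in the juvenile pituitary and at -1.44 in the juvenile long bone, and CISH at 2.44 in the juvenile pituitary is the farthest point from 0.

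JAK2, the kinase, was at 44.6 to 66.5 CPM in all pituitary libraries and at 88.1 to 273.7 CPM in the long bone, and its log2 fold changes between breeds were -0.26 (SE 0.17) and 0.16 (SE 0.20) in the juvenile and adult pituitary and 0.05 (SE 0.25) and 0.16 (SE 0.42) in the juvenile and adult long bone. In the juvenile long bone the interval of 2 SE ran from -0.46 to 0.55, and in the adult long bone from -0.68 to 1.00, so that differences of up to those sizes were not told apart from 0. By edgeR and by DESeq2, 0 of these 4 passed.

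The 3 STAT genes did not pass the DEG threshold in juvenile long bone, where STAT3 and STAT5A did not overlap between breeds. STAT3 was at 233, 112 and 155 CPM in DPLBJ. It was at 252, 259 and 265 CPM in MHLBJ, above every DP library (log2 fold change -0.63, SE 0.30, edgeR adjusted p 0.327). STAT5A was at 26.4 to 30.5 CPM against 36.8 to 47.0 CPM, again without overlap (-0.49, SE 0.23, edgeR adjusted p 0.314). STAT5B overlapped, at 36.2 to 50.7 against 48.4 to 54.6 CPM (-0.21, SE 0.22). Together with GHR and PTPN11, 4 of the 9 tested members did not overlap between breeds in this tissue and stage, all lower in DPs, where 21.9% of all tested genes did not overlap. In adults, all 3 STATs overlapped, with log2 fold changes of -0.27 (SE 0.36), -0.26 (SE 0.34) and -0.35 (SE 0.31) for STAT3, STAT5A and STAT5B. In the pituitary their breed differences lay between -0.16 and 0.32 at both stages. MHPJ replicate 2, the library with muscle, blood cell, endothelial and adipocyte markers, held 20.7 CPM of STAT5A where the other MHPJ libraries held 6.29 and 5.00. Without it STAT5A was a DEG higher in juvenile DP pituitary, at 1.22 (SE 0.24, adjusted p 0.0101 by edgeR). Leaving out each of the 6 libraries gave -0.09 to 1.22.

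CISH, a STAT5-induced inhibitor that competes for the receptor, had the largest breed difference among the members that passed the low-count filter, in the juvenile pituitary. It was at 8.12, 6.87 and 6.88 CPM in DPPJ. In MHPJ it was at 1.42, 1.60 and 0.823 CPM, without overlap. The log2 fold change was 2.44 (SE 0.37, edgeR adjusted p 0.0217), a 5.44-fold higher level in juvenile DPs. With GHR, CISH made 2 of the 8 tested members DEGs in this comparison, in which 20.3% of the 14603 tested genes were DEGs, 7.6% were DEGs higher in DPs, and 10.7% had an adjusted p under 0.05. It remained a DEG when any 1 of the 6 libraries was left out (2.20 to 2.66), with adjusted p from 0.0029 to 0.119. CISH also followed the hormone genes across adult libraries. The hormone-poor DPPA replicate 1 and MHPA replicate 1 had 1.47 and 0.209 CPM. The other adult libraries had 5.35 and 6.17 CPM in DPPA and 7.20 and 7.84 CPM in MHPA. All 7 libraries with abundant hormone transcripts thus held at least 5.35 CPM of CISH, and all 5 hormone-poor libraries at most 1.60 CPM. The adult breed difference was -0.20 (SE 1.11), and -0.37 (SE 0.28) between the hormone-rich adult libraries. The breed by stage interaction of 2.68 (SE 1.30, adjusted p 0.270 by edgeR) did not pass.

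In the long bone CISH was uneven within groups. It was at 0.987, 1.95 and 6.11 CPM in DPLBJ and at 0.455, 0.468 and 3.47 CPM in MHLBJ. DPLBA had 2.92 to 6.34 CPM and MHLBA 1.34 to 5.77 CPM. Breed differences were 1.05 (SE 1.00) in juveniles and 0.19 (SE 0.62) in adults, and neither passed. Without MHLBJ replicate 3, the highest of its group, the juvenile value was 2.67 (SE 1.00), which passed the DEG threshold at an adjusted p of 0.511 by edgeR. Leaving out each of the 6 libraries gave 0.07 to 2.67.

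**Figure D4:**
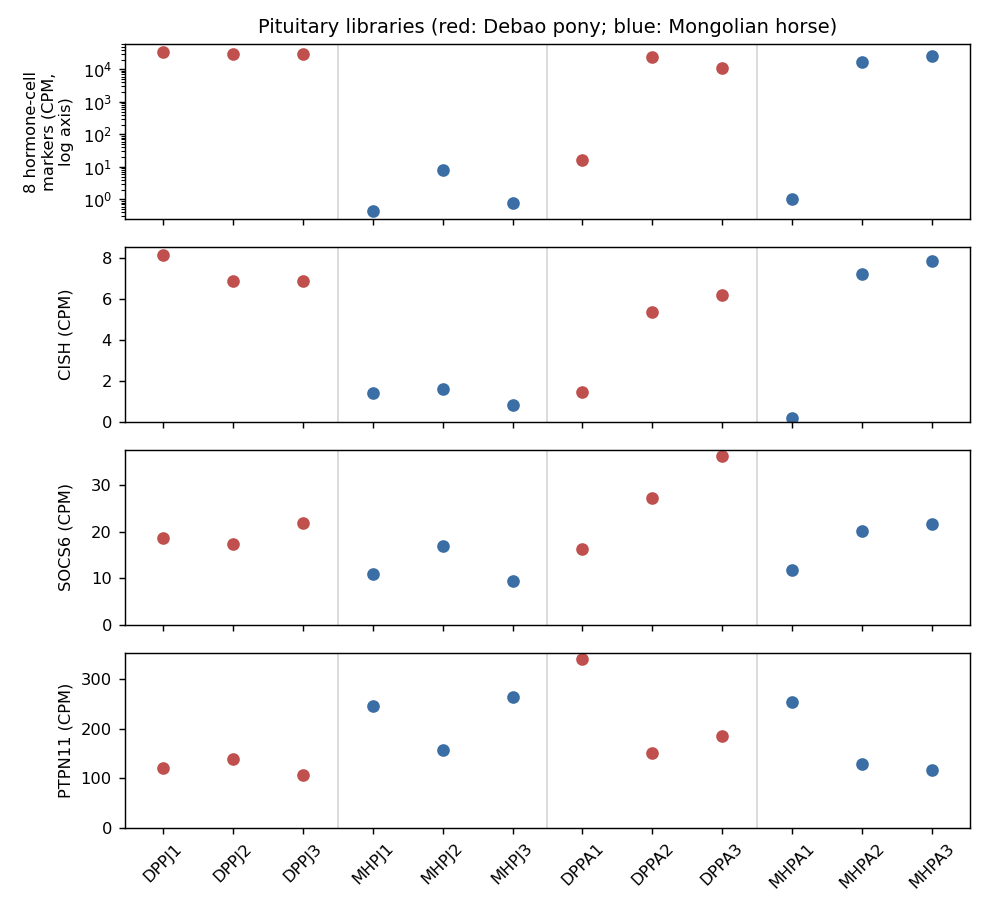
Summed CPM of 8 anterior pituitary markers (log axis) and CPM of CISH, SOCS6 and PTPN11 in each of the 12 pituitary libraries. The 5 libraries with a marker sum of at most 15.9 CPM hold at most 1.60 CPM of CISH, and 4 of them hold the 4 highest levels of PTPN11.

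SOCS6 and PTPN11 also differed with the hormone content of the pituitary libraries: SOCS6 was at most 17.0 CPM in the 5 hormone-poor libraries and at least 17.4 CPM in the other 7. SOCS6 was at 17.4 to 21.8 CPM in DPPJ and at 9.37 to 17.0 CPM in MHPJ, without overlap (log2 fold change 0.57, SE 0.30, edgeR adjusted p 0.242). PTPN11 went the other way, at 121, 139 and 106 CPM in DPPJ. MHPJ had 245, 158 and 264 CPM, again above every DP library (-0.92, SE 0.23, unadjusted P 0.0068 and adjusted p 0.0554 by edgeR), just under the fold threshold. Thus 4 of the 8 tested members (GHR, CISH and SOCS6 higher, PTPN11 lower in DPs) did not overlap between juvenile breeds, where 40.9% of all tested genes did not overlap. The 4 highest PTPN11 levels of the pituitary, 245 to 341 CPM, were those of MHPJ replicates 1 and 3, DPPA replicate 1 and MHPA replicate 1. PTPN11 was a DEG at -1.09 (SE 0.15, adjusted p 0.0028 by edgeR) without MHPJ replicate 2, and at -1.06 (SE 0.30) without DPPJ replicate 2. The part of glia or of missing hormone cells in these differences was not tested. In the adult pituitary, 0 of 8 members were DEGs by edgeR, DESeq2 or limma on log2(RPKM + 1) and 0 had an unadjusted P under 0.05. Of all 14376 genes tested there, 2.93% were DEGs. All 8 members overlapped between the adult breeds, where 17.3% of all genes did not.

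In the long bone PTPN11 was lower in DPs. DPLBJ had 171, 137 and 176 CPM. MHLBJ had 221, 257 and 268 CPM, without overlap (-0.61, SE 0.22, edgeR adjusted p 0.230). The adult groups overlapped, at 95.8 to 171.6 CPM in DPLBA and 147.9 to 237 CPM in MHLBA (-0.58, SE 0.31). Over both stages the difference was -0.61 (SE 0.19, edgeR adjusted p 0.0436), a 1.53-fold lower level, so that PTPN11 and GHR were the 2 of 9 members that passed. The call of PTPN11 was kept without DPLBA replicate 1 or MHLBA replicate 1 and lost without any 1 of the other 10 libraries, with adjusted p up to 0.103 by edgeR. SOCS6 in the long bone was at 6.65 to 16.2 CPM in DPLBJ and 8.33 to 11.5 CPM in MHLBJ (0.26, SE 0.39). Its adult values were 5.19 to 11.8 CPM in DPLBA and 11.5 to 12.6 CPM in MHLBA (-0.73, SE 0.42). Neither passed, and the adult value was a DEG at -1.21 (SE 0.37) without DPLBA replicate 1. Leaving out each of the 6 adult libraries gave -1.21 to -0.50.

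SOCS3, an inhibitor that blocks JAK2 and receptors of the interleukin-6 family, was read in few fragments. DPLBA libraries had 52, 57 and 48 reads and DPLBJ libraries 14, 16 and 22. As CPM these were 3.23, 2.90 and 2.72 in adults and 1.15, 1.16 and 1.26 in juveniles, with no overlap, and the log2 difference of juveniles from adults was -1.27 (SE 0.48, unadjusted P 0.0294 and adjusted p 0.988 by edgeR). SOCS3 was the 1 of 9 members called between the stages of DP long bone, where 3.14% of 13866 tested genes were. It was not a DEG when any 1 of the 6 libraries was left out, with log2 differences of -1.33 to -1.20. MHLBA had 2.15, 1.87 and 1.27 CPM and MHLBJ 1.59, 0.608 and 0.992 CPM. Adult breed levels did not overlap, SOCS3 being higher in DPs (0.67, SE 0.46, edgeR adjusted p 0.409).

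In the pituitary SOCS3 had 1 to 14 reads per library and missed the filter on low counts. The adult groups held 2, 2 and 1 reads in DPPA and 7, 9 and 14 reads in MHPA, a ratio of MH to DP of 7.99 (95% interval 3.07 to 26.4, exact conditional binomial, counting error only). Without the filter the adult difference was -2.88 (SE 0.76, unadjusted P 0.0062 and adjusted p 0.742 by edgeR). The juvenile groups held 9 and 11 reads in all, for DP and MH. Its breed difference in the long bone, averaged over stages, was 0.41 (SE 0.34, adjusted p 0.427 by edgeR) and did not pass. A tissue by breed interaction of 2.33 (SE 0.57) was fitted over the 24 libraries, which SOCS3 entered through the long bone alone, so that this value is a description and supports no difference between the tissues.

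SOCS1, which blocks the kinase domain of JAKs, had 0 to 29 reads per library and missed the filter on low counts in both tissues. In the long bone, DPLBJ libraries had 4, 6 and 14 reads and DPLBA libraries 7, 29 and 10. MHLBJ had 1, 0 and 1 reads and MHLBA 0, 8 and 1. Per effective depth, the ratio of DP to MH was 15.1 (95% interval 3.75 to 132) in juveniles and 4.96 (2.40 to 11.5) in adults by the same interval, which covers counting error only. Without the filter, the difference averaged over stages was 2.99 (SE 0.83, adjusted p 0.0363 by edgeR), and the share of all unfiltered genes that passed is not given here. In some fits with 1 library left out, SOCS1 passed the filter through DP libraries alone. There it was not called without MHLBA replicate 3 or any 1 MHLBJ library, with adjusted p of 0.0506 to 0.0657 by edgeR. Within the stages and without the filter, the SOCS1 difference did not reach an adjusted p under 0.05, at 3.54 in juveniles (SE 1.22, unadjusted P 0.0151 and adjusted p 0.215 by edgeR). In adults the unadjusted P was 0.0526 and the adjusted p 0.286 by edgeR. Neutrophil markers summed to 292 to 10811 CPM in DP and 52.4 to 792 CPM in MH long bone. Their highest sum was in DPLBJ replicate 2, with 6 SOCS1 reads, and DPLBA replicate 2, with 29 reads, had 2331 CPM. The part of these or other cell types was not tested. In the pituitary, juvenile DPs had 3, 4 and 13 reads and juvenile MHs 2, 0 and 0, a ratio of 7.07 (1.72 to 62.4, counting error only). Without the filter this juvenile difference was 2.64 (SE 1.24, unadjusted P 0.0713 and adjusted p 0.255 by edgeR), and all MHPJ libraries are hormone-poor. Adult DPs had 10 reads and adult MHs 9 in all, a ratio of 0.83 (0.30 to 2.32).

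**Figure D5:**
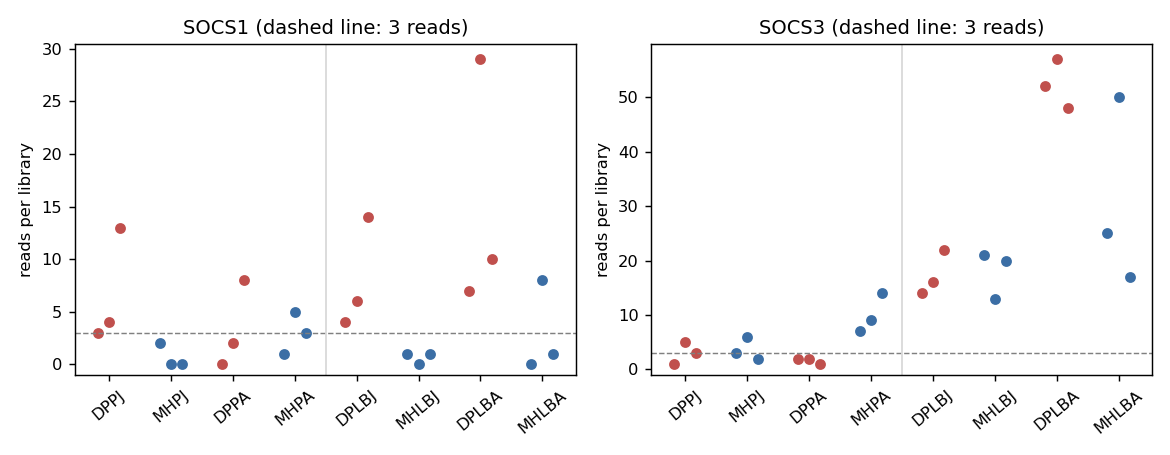
Reads of SOCS1 (left) and SOCS3 (right) in the 3 libraries of each group, DP in red and MH in blue; the dashed line marks 3 reads, taken as the floor of detection in a library. SOCS1 lay above the floor in all 6 DP and 1 of the 6 MH long bone libraries, and SOCS3 reached 48 to 57 reads in DPLBA.

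Between the stages, counts of DEGs among the members were read against all genes. In MHs, 0 of 8 members were DEGs between juvenile and adult pituitary and 0 had an unadjusted P under 0.05 by edgeR, against 7.74% DEGs among 14430 genes, and DESeq2 called 0. GHR was lower in MHPJ than in MHPA without overlap (-0.75, SE 0.37, unadjusted P 0.0884 by edgeR), the 1 member of the 8 to do so, where 18% of all genes did not overlap. Without MHPJ replicate 2, GHR (-1.20, SE 0.23) and STAT5A (-1.13, SE 0.32) were DEGs, and CISH was one without MHPA replicate 1 (-2.51, SE 0.44). Over the 6 leave-outs GHR ran from -1.20 to -0.52, STAT5A from -1.13 to 0.16 and CISH from -2.51 to -1.46. In the DP pituitary 0 of 8 were DEGs by edgeR and by DESeq2 (1 had an unadjusted P under 0.05), against 3.56% of 14533 genes. CISH was higher in juveniles (0.72, SE 0.51) and PTPN11 lower (-0.92, SE 0.33, unadjusted P 0.0270 by edgeR), both without overlap, as 21.9% of all genes were. PTPN11 was a DEG without DPPA replicate 2 (-1.15), DPPA replicate 3 (-1.04) or DPPJ replicate 2 (-1.01), and its 6 leave-out values ran from -1.15 to -0.49. The hormone-poor DPPA replicate 1 held 341 CPM of PTPN11, against 151 and 186 CPM in the other DPPA libraries. All MHPJ libraries, DPPA replicate 1 and MHPA replicate 1 are hormone-poor, so both pituitary stage comparisons mix stage with hormone content. In the MH long bone 0 of 9 were DEGs and 0 had an unadjusted P under 0.05 by edgeR, DESeq2 also calling 0, against 2.91% of 13899 genes. GHR was higher in juveniles there without overlap (0.48, SE 0.31), where 8.48% of all genes did not overlap, and CISH was a DEG without MHLBJ replicate 3 (-2.95, SE 0.84). The leave-out values of CISH ran from -2.95 to -0.75. In the DP long bone, SOCS3 was the 1 member without overlap, with 9.09% of all genes. Averaged over breeds, 0 members passed in either tissue by edgeR or DESeq2, and 0% of all genes did. SOCS3 in the long bone, at a lower level in juveniles (unadjusted P 0.0140 and adjusted p 0.871 by edgeR) was the 1 member with an unadjusted P under 0.05. Breed by stage interactions passed for 0 members in both tissues, again with 0% of all genes by edgeR, and 1 member, PTPN11 in the pituitary (-1.37, SE 0.53, unadjusted P 0.0275), had an unadjusted P under 0.05.

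The breed comparisons of adult long bone gave 0 DEGs among 9 members by edgeR and by DESeq2, and 0 had an unadjusted P under 0.05, against 18.3% DEGs among 14073 genes. SOCS3 was the 1 member without overlap, where 29.6% of all genes did not overlap. Averaged over stages, 0 of 8 members passed between breeds in the pituitary by edgeR, 2 had an unadjusted P under 0.05 and DESeq2 called 1 (GHR, 0.82, adjusted p 0.0142), against 1.32% of 15200 genes by edgeR. The share of all genes that DESeq2 called is not given here.

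Other genes of the pathway were read from 6 lists of ligands, cytokine receptors, further JAKs and STATs, further feedback genes, adaptors and STAT targets, 75 of whose 84 symbols are in the files. SOCS2, a main feedback gene of GHR, was not analysed here. In the juvenile pituitary 6 of 64 tested were DEGs higher and 9 lower in DPs, 23.4% against 20.3% of all genes. The higher ones included GH and PRL, the hormones themselves, with means of 16396 and 10570.3 CPM in DPPJ and of 1.19 and 0.363 CPM in MHPJ. PRLR, the prolactin receptor, which uses the same JAK2 and STAT5, was higher at 4.57 (SE 0.41, edgeR adjusted p 0.00996), and STAT4 was higher at 2.81 (SE 0.39). The tyrosine phosphatases PTPN2 and PTPN6, which act on JAKs and STATs, were higher at 1.34 (SE 0.17) and 1.02 (SE 0.24). Lower DEGs included IL6ST, the shared receptor chain of the interleukin-6 family, at -1.06 (SE 0.19), its partner LIFR at -1.42 (SE 0.45) and IGF1 at -1.49 (SE 0.50). These comparisons set hormone-rich against hormone-poor libraries, as above. In the adult pituitary 1 of 63 was higher (BCL6, 1.44, SE 0.40) and 1 lower (PRLR, -1.57, SE 0.59), 3.17% against 2.93% of all genes.

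In the juvenile long bone 3 of 64 were DEGs higher and 7 lower in DPs, 15.6% against 13.8% of all genes. The lower ones included the cytokine receptors OSMR at -1.30 (SE 0.32) and CNTFR at -2.05 (SE 0.46). CSF3R, the neutrophil growth factor receptor, was higher at 4.78 (SE 1.40). GRB10, an adaptor that dampens insulin and IGF1 receptors, was lower at -1.32 (SE 0.25). In the adult long bone 8 of 65 were higher and 4 lower, 18.5% against 18.3% of all genes, with CSF3R at 3.45 (SE 0.39) and JAK3 at 1.74 (SE 0.33) higher and PRLR at -3.48 (SE 1.14) lower. IGF1, the main mediator of growth hormone, was not a DEG in juvenile (0.55, SE 0.55) or adult (-0.52, SE 0.45) long bone. Both intervals of 2 SE reached past a 2-fold change. Averaged over stages, 6 of 69 were higher and 6 lower at an adjusted p under 0.05, 17.4% against 17.1% of all genes. JAK1, the partner kinase of many cytokine receptors, was a DEG in 0 of the 4 breed comparisons by edgeR, with log2 fold changes of -0.39 to -0.03 and 0 of the 4 at an unadjusted P under 0.05. Between the tissues 36 of 69 were higher in the long bone and 11 lower, 68.1% against 61.8% of all genes, led among receptors by LEPR, the leptin receptor (5.17, SE 0.46), and IGF1 was higher at 3.92 (SE 0.33).

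Genes whose pattern was most like that of GHR were ranked by Pearson's r of log2 CPM across libraries, given as a description, since the libraries share tissue, cell makeup and depth. Over the 12 long bone libraries the nearest of 14049 genes were GABARAPL3 (r = 0.968), CIDEC (0.949), PMP2 (0.941), SPTBN1 (0.938) and PDE2A (0.938). CIDEC coats fat droplets and was one of the 7 adipocyte markers. Over all 24 libraries they were 5HTT (0.957), SMAGP (0.954), TEK (0.952), VEGFC (0.949) and G0S2 (0.949). For CISH in the 12 pituitary libraries they were HPN (0.977), ACPP (0.975), ARFGAP3 (0.972), ERGIC1 (0.972) and VDR (0.971). For SOCS3 over 24 libraries, with 1 to 14 reads in each pituitary library, they were MMP13 (0.902), HOXA10 (0.894), UGDH (0.893), ICAM1 (0.890) and MMP9 (0.888). Over the 12 long bone libraries they were other genes: CLPTM1L (0.914), ZNF365 (0.908), MANSC1 (0.884), CTBP1 (0.875) and EPHX3 (0.874).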

How the data were processed

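The authors deposited whole-number read counts per gene without normalization, and RPKM, scaled by gene length and library size. Ribosomal RNA was depleted and directional libraries were sequenced on an Illumina instrument; bcl2fastq, TopHat2 and edgeR are named in the submitters' processing notes, whereas the study's methods name Salmon, so the mapping and counting programs behind the counts are uncertain. Counts were tested with edgeR 4.0.16 (glmQLFit and glmQLFTest, TMM factors, filterByExpr with a minimum count of 10) over all tested genes with Benjamini-Hochberg adjustment. SE is the absolute log2 fold change divided by the square root of F. Pairs of groups used their 6 libraries, averages and interactions the 12 or 24 libraries concerned. Log2 fold changes are DP minus MH, juvenile minus adult or long bone minus pituitary. Alternatives were DESeq2 1.42.0, limma 3.58.1 on log2(RPKM + 1) and log2(RPKM + 0.1), other scaling, no filter, a replicate block and leaving out each library. The scripts were tested on simulated data. Named genes were the 10 members, up to 3 called genes per pathway list with the largest change, PRLR, JAK1 and IGF1, and the 5 nearest patterns. Members and lists were chosen with earlier results of these data known. RPKM of DPLBA replicate 2 differed by up to 32.3% from the value its reads give (SOCS6). The labels do not say which horse gave which sample, so p-values measure the spread between libraries. Same-numbered libraries deviated together (all 3 r above 0.1) in the adult pituitary breed comparison (0.621, 0.486 and 0.33), where replicate 1 of both breeds is hormone-poor, and in no other comparison. All 10 members matched the RefSeq table.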

Additional observations from a re-analysis of the deposited data

Results flagged for a closer look

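The breed difference of GHR differed between the tissues by a test of the difference itself, with a tissue by breed interaction of -1.97 on the log2 scale (SE 0.45, adjusted p 0.0120 by edgeR). In a fit with a replicate block it was -2.14 (adjusted p 0.0533 by edgeR) and did not pass. Its pituitary part includes the hormone-poor MHPJ libraries, so breed and hormone content cannot be told apart there in juveniles. SOCS3 had a fitted interaction of 2.33 (SE 0.57), but with 1 to 14 reads per pituitary library it missed the low-count filter in that tissue and entered the fit through the long bone alone, so the value is no support for a difference.

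Within the juvenile stage, every DP library was above every MH library for GHR in the pituitary (1.15) and below every MH library in the long bone (-1.44). Between the stages of MHs, every juvenile library was below every adult library for GHR in the pituitary (-0.75) and above in the long bone (0.48). These last pairs were set side by side, and the difference within one stage or one breed was not tested. The MHPJ libraries used in both pituitary comparisons are hormone-poor.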

How the results depend on the processing

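Of 2559 alternative values of single members, 2496 kept their direction and side of the threshold, counting 133 uncalled values that changed sign within 1 SE of 0 as kept, 42 lost a call, 20 gained one and 1 reversed (SOCS1 between tissues, -0.11 without the 5 hormone-poor pituitary libraries, from 0.69). The counts of members called moved as follows. With an adjusted p required, the breed comparison of the juvenile pituitary gave 1 (CISH) and those of the juvenile long bone and of stage in the DP long bone gave 0. Without the low-count filter the counts were 1 in the adult pituitary (SOCS3), 2 in the juvenile long bone (GHR and SOCS1) and 0 for stage in the DP long bone. Without the hormone-poor DPPA replicate 1 and MHPA replicate 1 the adult pituitary gave 1 (SOCS3). With 2 and 1 reads in DPPA and 9 and 14 in MHPA, SOCS3 then passed the filter through MHPA alone, so this call is no support for a difference. limma on log2(RPKM + 0.1) gave 1 for stage in the MH pituitary (GHR), limma on log2(RPKM + 1) gave 0 for stage in the DP long bone, and DESeq2 gave 1 for breed averaged in the pituitary (GHR). For breed averaged in the long bone the count was 0 without normalization factors and with limma on either scale. Leaving out 1 library gave 1 to 4 members for breed in the juvenile pituitary, 0 to 1 in the adult pituitary, 1 to 2 in the juvenile and 0 to 2 in the adult long bone. The call in the adult pituitary was again SOCS3 through MHPA alone, without MHPA replicate 1. For stage, leaving out 1 library gave 0 to 2 in the MH pituitary, 0 to 1 in the DP pituitary, 0 to 1 in the MH and 0 in the DP long bone. For breed averaged over stages it gave 0 to 1 in the pituitary and 0 to 3 in the long bone, and for the tissue by breed interaction 2 to 3. The averaged long bone counts include SOCS1, called higher in DPs in some of these fits. It passed the filter there through the DP libraries alone, so these calls are no support for a difference. The cause of the moves in these counts was not tested.

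With a replicate block the count was 0 for stage in the DP long bone (SOCS3, -1.27, unadjusted P 0.0623), 0 for breed averaged in the long bone (GHR, -1.30, adjusted p 0.0503; PTPN11, -0.62, adjusted p 0.0663) and 0 for the tissue by breed interaction (GHR, -2.14, adjusted p 0.0533; SOCS3, 2.35, adjusted p 0.0883), all by edgeR. The replicate numbers were not shown to pair libraries in these comparisons. In the adult pituitary, same-numbered libraries deviated together, but they are of different breeds and replicate 1 of both is hormone-poor. The block left the count at 0 there.

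Leaving out normalization factors moved the median of all genes by -0.22 in the juvenile long bone, where GHR was then at -1.68 and PTPN11 at -0.83, and by -0.20 between tissues. Low counts limit SOCS1 and pituitary SOCS3 most, and 3 libraries a group left several values above with intervals wider than a 2-fold change.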

Other observations

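Immediate early genes, which growth factors and tissue handling both induce, were compared between breeds in the long bone. Of 12 tested, 3 were DEGs lower and 0 higher in DPs at the juvenile stage (ATF3 at -1.86, SE 0.46, EGR3 at -1.59, SE 0.58, and EGR1 at -1.33, SE 0.39), where 5.47% of all genes were DEGs lower and 8.33% higher. At the adult stage 5 were lower and 1 higher, led by FOSB at -4.06 (SE 1.18) and ATF3 at -2.02 (SE 0.45), with IER2 higher at 2.29 (SE 0.83), where 8.03% of all genes were DEGs lower and 10.3% higher. Their median log2 fold change was -0.73 in juveniles and -0.76 in adults, beside medians of 0.05 and -0.03 over all tested genes. Averaged over stages, ATF3 (-1.95), JUN (-1.33) and EGR1 (-0.99) had an adjusted p under 0.05 by edgeR.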
